A study of Mus musculus with 6 samples.

Results

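The 8 genes described here encode proteins of the endosome and the lysosome: the cysteine cathepsins Ctsb, Ctsk, Ctsl, Ctss and Ctsz, the aspartic protease Ctsd, the asparaginyl endopeptidase Lgmn and the cystatin Cst3. They were found by symbol among the 20394 genes of a table of unique molecular identifiers (UMIs, tags that mark single RNA molecules), and all 8 were present. The table holds 32953 cells that carried CD45, the surface protein of leukocytes, and that were sorted from digested joint tissue of C57BL/6 mice (male, bought at 8 weeks of age) with antigen-induced arthritis. All mice were immunized with 10 μg of methylated bovine serum albumin (mBSA) in complete Freund's adjuvant, received 100 μg of mBSA into the knee on day 21 and were sampled on day 3 after that. From day 21 they were injected intraperitoneally with PBS (2 samples) or with 300 μg of the peptide PEPITEM (4 samples).

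Cell barcodes carry a library number from 1 to 6 that no source used here ties to a sample. The libraries were therefore taken as libraries of unknown treatment, PBS and PEPITEM were not compared, and no test was run. Levels are given as CPM, the UMIs of a gene divided by all UMIs of the cells of a class and multiplied by 1000000, with the values of the 6 libraries as the spread. A library counts for a class where it holds at least 20 of its cells, and the intervals cover counting error alone. The libraries held 2919 to 9345 cells and 47273569 to 123367661 UMIs, and 138 barcodes occurred in more than 1 library (0.838% of cells). Cells were placed in classes by marker genes, none of which is one of the 8 genes, and 21447 cells (65.1%) passed a gate. The classes included 752 promyelocyte-like, 578 pro-B-like and 1332 small pre-B-like cells, stages usually found in bone marrow, and 66 fibroblast-like cells, although the label names CD45+ synovial cells. Class names end in "-like" because they rest on these markers. 28 classes had at least 50 cells. A further 1384 cells carried macrophage together with neutrophil markers and were left out of all classes.

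Cathepsins are made as inactive precursors, reach the lysosome through sorting receptors and are activated at its low pH. There they degrade proteins taken up by phagocytosis and autophagy, and Ctss trims the invariant chain of MHC class II molecules in antigen-presenting cells. Ctsl does so in the thymic epithelium. Ctsk is the collagenase with which osteoclasts resorb bone, and Ctsz is a carboxypeptidase. Lgmn cuts after asparagine and processes several cathepsins to their mature forms. Cst3 (cystatin C) is a secreted inhibitor of papain-like cysteine proteases and also binds Lgmn, while it does not inhibit the aspartic protease Ctsd.

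The genes lie on 6 chromosomes in GENCODE vM21 (GRCm38), all as protein-coding genes. Ctsb lies at chr14:63122462-63145923, Ctsd at chr7:142375911-142388038, Ctsl at chr13:64359337-64370890, Lgmn at chr12:102394084-102439813, Ctsz at chr2:174427493-174439039 and Cst3 at chr2:148871722-148875692. Ctsk (chr3:95499256-95509362) and Ctss (chr3:95526786-95556403) are neighbours on the same strand, 17423 bases apart. The 250 bases before their RefSeq starts (GRCm38.p6, plus strand) are shown because the 2 neighbours had different patterns over the cell classes, as described further on. Capitals in Ctss mark the core of the interferon-stimulated response element (ISRE), 2 copies of GAAA with 2 free bases between them.
Ctsk, chr3:95498960-95499209: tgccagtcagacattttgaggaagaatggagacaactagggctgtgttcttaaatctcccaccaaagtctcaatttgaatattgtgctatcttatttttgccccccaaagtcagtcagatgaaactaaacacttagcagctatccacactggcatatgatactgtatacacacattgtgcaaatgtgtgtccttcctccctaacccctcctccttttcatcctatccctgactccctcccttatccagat
Ctss, chr3:95526536-95526785: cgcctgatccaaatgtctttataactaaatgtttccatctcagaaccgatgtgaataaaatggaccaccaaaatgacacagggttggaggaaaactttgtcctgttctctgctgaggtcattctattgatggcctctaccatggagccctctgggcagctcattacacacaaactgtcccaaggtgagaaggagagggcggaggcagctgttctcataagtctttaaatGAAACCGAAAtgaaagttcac

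The ISRE core was found on either strand in 2.98% of the 32851 RefSeq windows of the same length, and among the 7 genes with a window it was found in Ctss alone. All motifs were searched on both strands, and none of the matches overlapped another. The letters GAGGAAGT (the motif of PU.1) and TGANTCA (AP-1) were in none of the 8 windows of these 7 genes, against 2.44% and 6.75% of all windows. The letters CACGTG, the E-box that the lysosomal regulator TFEB and many other factors bind, were in 6.02% of all windows. Before the RefSeq starts they were found at 2 places in Ctsd, at 1 in Ctsl and at 1 in the inner of 2 starts of Lgmn. The Ctsl and Lgmn stretches and the second Ctsd stretch lie inside the GENCODE genes, which begin further upstream. Ctsd, Ctsl and Lgmn were among the genes above 5 CPM that were at least 2-fold higher in mature than in immature neutrophil-like cells. So were Ctss (5.31-fold) and Ctsz (2.23-fold), which had no CACGTG in their windows. The stretches around the matches are shown with CACGTG in capitals.
Ctsd, chr7:142388055-142388077, minus strand: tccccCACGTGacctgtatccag
Ctsd, chr7:142387908-142387937, minus strand: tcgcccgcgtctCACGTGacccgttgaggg
Ctsl, chr13:64370739-64370768, minus strand: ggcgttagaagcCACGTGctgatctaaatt
Lgmn, chr12:102439124-102439153, minus strand: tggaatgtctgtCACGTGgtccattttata
No binding was measured here, so these matches describe the letters alone.

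Over all cells the 8 genes fell into several patterns. Ctsb, Ctss, Lgmn and, less steeply, Ctsz were highest in macrophage-like cells, Ctsd was high in macrophage-like and in mature neutrophil-like cells, Ctsl in fibroblast-like, Arg1 macrophage-like and plasmacytoid dendritic-like cells, Cst3 in type 1 dendritic-like cells, and Ctsk in very few cells. Together they held 1.14% of the UMIs of Arg1 macrophage-like cells, 0.933% in Lyve1 macrophage-like cells and 1.84% in type 1 dendritic-like cells. In classical monocyte-like cells this share was 0.516%, in mature neutrophil-like cells 0.154% and in B-like cells 0.0845%.

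**Figure D1:**
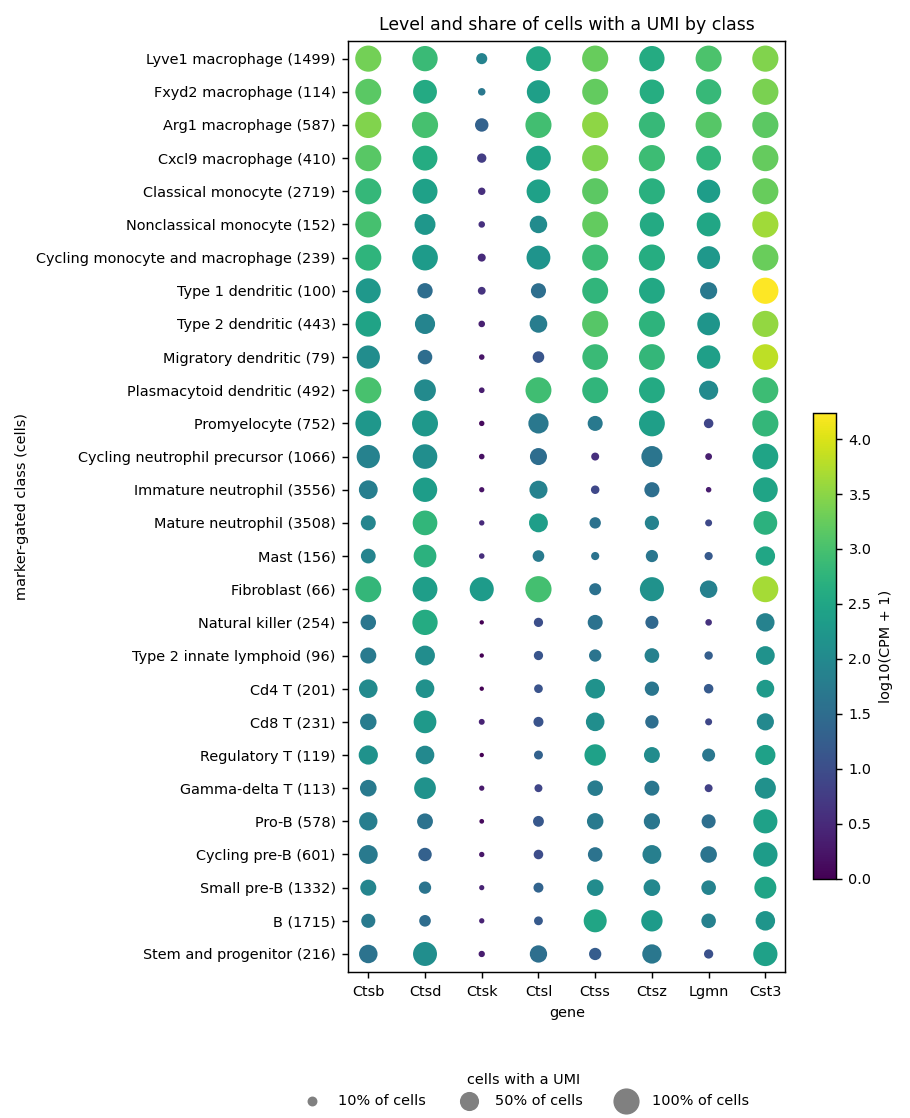
Level and share of positive cells of the 8 genes in 28 classes. Rows are marker-gated classes with their cell numbers, columns are genes, colour is log10(CPM + 1) of the pooled cells and dot area follows the percent of cells with at least 1 UMI. Cst3 is brightest in type 1 dendritic-like cells (17186 CPM), and Ctss and Lgmn are near 0 in immature neutrophil-like cells (7.34 and 1.15 CPM).

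Macrophage-like cells were first set against classical monocyte-like cells, the blood-derived cells from which many inflammatory macrophages arise. Lyve1 macrophage-like cells (1499 cells with Lyve1 and at least 4 of Cd163, Folr2, Timd4, Mrc1, Gas6 and Cbr2, markers of resident macrophages) had 4 of the 8 genes at least 2-fold higher than the 2719 classical monocyte-like cells and 0 at least 2-fold lower. Of all genes above 5 CPM in either class, 18.3% were at least 2-fold higher and 9.9% at least 2-fold lower. The median log2 difference was 1.09 for the 8 genes and 0.09 for all genes.

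Lgmn stood at 1145, 1115, 1047, 1141, 916 and 1045 CPM in Lyve1 macrophage-like cells of libraries 1 to 6. In classical monocyte-like cells it stood at 440.5, 190.3, 340.1, 163, 175 and 179 CPM. The 2 ranges did not overlap, and the pooled level was 4.92-fold (95% counting interval 4.81 to 5.04) higher in the macrophage-like cells. Ctsb, which degrades a wide range of proteins and can also act as a dipeptidase, stood at 2261, 2332, 2183, 2437, 1732 and 1761 CPM against 947, 663, 782, 577, 612 and 565 CPM. Every library was again higher in the macrophage-like cells, and the pooled difference was 3.32-fold (95% counting interval 3.27 to 3.37). Ctsd was 2.97-fold (95% counting interval 2.90 to 3.04) higher, with 599 to 1873 CPM against 238 to 261 CPM. Ctsk, at 77.5 against 2.77 CPM, was 28-fold (95% counting interval 23.3 to 33.8) higher in the pooled cells. The pooled differences of Ctss (1.20-fold), Ctsl (1.29-fold) and Cst3 (1.53-fold) stayed below 2-fold. Ctsz was 1.22-fold lower in the Lyve1 macrophage-like cells, where it was lower in 5 of 6 libraries.

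The summed level of 9 neutrophil markers was 1823 to 3111 CPM over the libraries in Lyve1 macrophage-like cells and 1545 to 1946 CPM in classical monocyte-like cells, with 0 of the 9 at 0 in either class. The part of this RNA in the differences was not tested.

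Arg1 macrophage-like cells (587 cells with Arg1 and genes such as Spp1, Inhba and Ccl7) had the highest pooled levels of Ctsb, Ctsd, Ctss and Lgmn of all classes with at least 50 cells, although for none of the 4 genes did their libraries lie apart from those of the class ranked next. Compared with classical monocyte-like cells, 6 of 8 genes were at least 2-fold higher and 0 at least 2-fold lower, against 9.16% and 6.9% of all genes. With mitochondrial, ribosomal protein and neutrophil marker genes left out of the total, the higher share of all called genes moved from 57% to 46.4%, and 6 of the 8 genes were still called higher. Ctss stood at 4076, 2355, 3115, 3045, 3413 and 2822 CPM in libraries 1 to 6, while it stood at 2429, 1286, 1951, 1528, 1303 and 1243 CPM in the monocyte-like cells. The ranges overlapped between libraries, yet within each of the 6 libraries Ctss was higher in the Arg1 macrophage-like cells, by 1.6 to 2.62-fold, and the pooled difference was 2.21-fold (95% counting interval 2.18 to 2.23). Lgmn differed by 6.06-fold (95% counting interval 5.91 to 6.21), Ctsb by 4.13-fold (95% counting interval 4.06 to 4.19) and Ctsd by 3.89-fold (95% counting interval 3.80 to 3.99). Ctsl, which stood at 1063, 732, 789, 1032, 716 and 937 CPM against 315, 248, 265, 305, 261 and 196 CPM, was 3.47-fold (95% counting interval 3.38 to 3.56) higher with no overlap between the ranges. Ctsk was 6.97-fold (95% counting interval 5.62 to 8.69) higher at a level of 19.3 CPM. Cst3 went the other way in the pooled cells, at 1492 against 1804 CPM, but was higher in the macrophage-like cells in 2 of 6 libraries. The 9 neutrophil markers summed to 2848 to 4331 CPM in the Arg1 macrophage-like cells, above the range of the monocyte-like cells, and the part of this in the differences was not tested.

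Cxcl9 macrophage-like cells (410 cells with Cxcl9 and genes such as Cxcl10 and Gbp5, which interferon induces) had Lgmn and Ctsb at least 2-fold higher than classical monocyte-like cells, with 0 genes at least 2-fold lower among the 7 above 5 CPM in either class. This compares with 7.6% of all genes higher and 6.18% lower. Lgmn was 2.70-fold (95% counting interval 2.61 to 2.79) higher and at least 2-fold higher in 3 of 5 libraries. Ctsb lay close to the threshold at 2.05-fold (95% counting interval 2.01 to 2.10), and in single libraries its difference ranged from 1.5 to 2.13-fold. Without library 3, 1 gene was called. Ctss (1.71-fold) and Ctsz (1.65-fold) were higher in each of 5 libraries without reaching 2-fold in the pooled cells. Ctsz, which also has a motif that binds integrins, had its highest level of all classes here, at 797 CPM (95% counting interval 780.0 to 815). The 9 neutrophil markers summed to 2507 to 4257 CPM over the libraries, and their part was not tested.

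Fxyd2 macrophage-like cells (114 cells with Fxyd2 or Aqp1 and without Lyve1) had 3 of 8 genes at least 2-fold higher than classical monocyte-like cells and 0 lower, against 19.7% and 11.7% of all genes. These were Ctsk (17.6-fold, with 5 of 114 cells holding its 64 UMIs), Lgmn and Ctsb. Lgmn was 3.08-fold (95% counting interval 2.87 to 3.30) and Ctsb 2.14-fold (95% counting interval 2.04 to 2.24) higher, and they reached 2-fold in 2 and 1 of 3 libraries. In the total without mitochondrial, ribosomal protein and neutrophil marker genes Ctsb was 1.96-fold higher, and 2 genes were called. Lgmn and Ctsb lay between the levels of monocyte-like and Lyve1 macrophage-like cells, at 675 and 1395 CPM. In this class 3 libraries reached 20 cells, and the 9 neutrophil markers summed to 107 to 1559.5 CPM there; their part was not tested.

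The 2 macrophage-like classes with the most cells were then compared directly. Of the 8 genes, Ctsk was at least 2-fold higher in Lyve1 than in Arg1 macrophage-like cells and Ctsl at least 2-fold lower, against 11.4% and 5.25% of all genes. Ctsl stood at 359, 274, 314, 350.4, 288 and 277 CPM in Lyve1 macrophage-like cells of libraries 1 to 6, each below 716 CPM, the lowest library of the Arg1 macrophage-like cells. The pooled difference was 2.69-fold (95% counting interval 2.61 to 2.77), and every library showed at least 2-fold. Cst3 had the opposite direction, at 2114 to 2949 CPM against 1316 to 1843 CPM, and was 1.85-fold (95% counting interval 1.82 to 1.88) higher in Lyve1 macrophage-like cells with no overlap between libraries. Ctss, Ctsz, Ctsb and Lgmn were all lower in Lyve1 macrophage-like cells within each of 6 libraries, by 1.84-, 1.71-, 1.24- and 1.23-fold in the pooled cells. Ctsd was 1.31-fold lower and had the opposite direction in 1 library.

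Library 2 stood apart for Ctsd. Its Lyve1 macrophage-like cells (37 cells) had 1873 CPM, and those of the other libraries had 599 to 813 CPM. Its Arg1 macrophage-like cells (80 cells) had 1724 CPM, while the other libraries had 762 to 916 CPM. In classical monocyte-like cells library 2 had 245 CPM, within the narrow range of the others. Without library 2 the pooled Ctsd level was 709 CPM in Lyve1 and 856 CPM in Arg1 macrophage-like cells, which was 2.83-fold and 3.41-fold above the monocyte-like cells. Library 2 was also highest in cycling monocyte and macrophage-like cells (32 cells), at 334 CPM against 179 and 186 CPM in libraries 5 and 6. Among the cells with both macrophage and neutrophil markers it had 850 CPM, against 510 to 642 CPM in the others. In mature neutrophil-like cells it had 520.1 CPM, within the range of the others. Library 2 had few cells in the 2 macrophage-like classes (37 and 80), and the part of this in the difference was not tested.

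**Figure D2:**
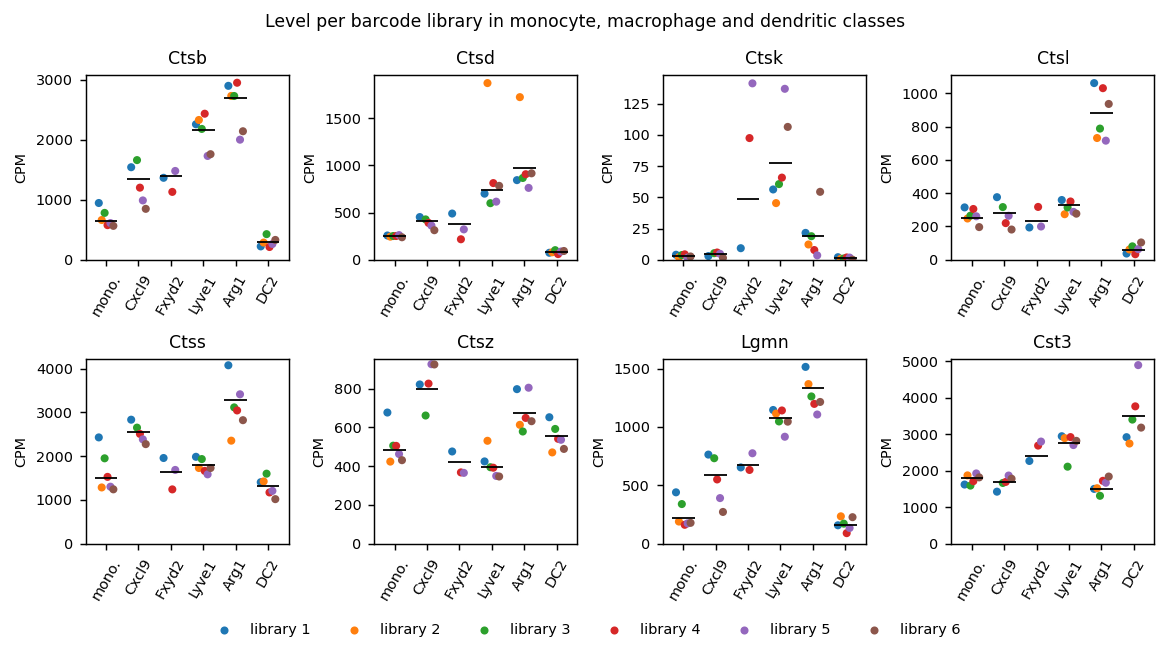
Level of each gene (CPM, linear axis) in 6 classes, with 1 point per barcode library of at least 20 cells and a line at the pooled level. The classes are classical monocyte-like (mono.), the 4 macrophage-like classes and type 2 dendritic-like (DC2) cells. Ctsl separates Arg1 macrophage-like cells (716 to 1063 CPM) from Lyve1 macrophage-like cells (274 to 359 CPM), and library 2 stands above the others for Ctsd in both.

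Within a class, most of the 8 genes varied less than 2-fold over libraries with at least 50 cells of the class. In classical monocyte-like cells 1 of 7 genes above 50 CPM differed at least 2-fold between the lowest and the highest library, against 9.85% of all genes above 50 CPM. This gene was Lgmn, at 163 to 440.5 CPM, with libraries 1 and 3 above the other 4. The same 2 libraries were also highest for Ctss and Ctsb. Ctsd differed by 1.10-fold over the 6 libraries, less than nearly all genes, at a percentile of 0.659. In Lyve1 macrophage-like cells of 5 libraries 1 of 8 genes passed, against 4.42% of all genes. This gene was Ctsk, at 56.3 to 137 CPM, and it did not pass without library 5. In mature neutrophil-like cells 2 of 5 genes passed, against 10.9% of all genes, namely Ctsb and Ctsz. Without library 1 or without library 4 Ctsb alone passed, and without library 3 Ctsz alone. In immature neutrophil-like cells 0 of 4 passed, against 5.16% of all genes.

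A list of 82 other genes gives the setting for these differences. It holds lysosomal hydrolases, lysosomal membrane and cofactor proteins and proton pump subunits. It also holds other cathepsins, protease inhibitors, sorting receptors, transcription factors and antigen processing partners such as MHC class II genes. Not all of these encode lysosomal proteins. Between Lyve1 macrophage-like and classical monocyte-like cells 27 of 80 listed genes above 5 CPM (33.8%) were at least 2-fold higher and 8 (10.0%) at least 2-fold lower, against 18.3% and 9.9% of all genes. Among 24 lysosomal hydrolases 10 (41.7%) were higher and 1 lower, and among 15 proton pump subunits 4 (26.7%) were higher and 0 lower. The largest differences were in Serpinb6a, an intracellular inhibitor of serine proteases (43.7-fold higher), and in Cd63, a tetraspanin of late endosomes (34.9-fold), followed by the acid phosphatase Acp2 (4.86-fold). The sorting receptor Sort1 (7.78-fold), the thiol reductase Ifi30 (3.13-fold) and the aminopeptidase Ctsh (2.93-fold) were lower. In Arg1 macrophage-like cells 21 of 79 listed genes (26.6%) were higher and 5 (6.33%) lower than in monocyte-like cells, against 9.16% and 6.9% of all genes, led by Cd63 (24.9-fold), the mannose-6-phosphate receptor Igf2r (14.7-fold) and Acp2 (6.49-fold). At the other end, among genes above 50 CPM in either class, was Sort1, 3.70-fold lower. Ifi30 and Gm2a, the activator of ganglioside breakdown, followed at 1.39-fold and 1.30-fold, below the threshold. The other lower genes were at or under 50 CPM, among them the serine protease Ctsg at 0.0714 against 33.9 CPM.

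In Fxyd2 macrophage-like cells 20 of 80 listed genes (25%, against 19.7% of all genes) were at least 2-fold higher than in monocyte-like cells. Lower were 7 (8.75%, against 11.7%). Among genes above 50 CPM in either class, Cd63 (28.7-fold), Serpinb6a (26.5-fold) and the phospholipase-like Pld3 (3.96-fold) were in front. Sort1, Ifi30 and Ctsh were at the end (24-fold, 3.54-fold and 2.25-fold lower). Of those under 50 CPM, Ctsf stood at 14.4 against 0.598 CPM and Igf2r at 35.7 against 4.80 CPM. The serine protease Ctsg stood at 0 against 33.9 CPM. Of the higher genes 5 were among the 7 antigen processing partners. Only 6 of 24 lysosomal hydrolases (25%) and 0 of 15 proton pump subunits were higher. In Cxcl9 macrophage-like cells 13 of 79 (16.5%) were higher and 5 (6.33%) lower, against 7.6% and 6.18% of all genes. All 7 antigen processing partners, namely MHC class II genes, Cd74, the loading genes H2-DMa and H2-DMb1 and their activator Ciita, were among the higher ones, such as H2-Eb1 (10.6-fold) and H2-Aa (9.21-fold), and Cd63 was 11.1-fold higher. Among genes above 50 CPM in either class, Sort1 was 4.39-fold lower, while the next in order, Atp6v0e and Lamp2, differed by 1.12-fold and 1.11-fold. The other lower genes were at or under 50 CPM, among them the serine protease Ctsg at 0.797 against 33.9 CPM. Between Lyve1 and Arg1 macrophage-like cells 3 of 78 listed genes (3.85%) were at least 2-fold higher in the former and 9 (11.5%) lower, against 11.4% and 5.25% of all genes. Among genes above 50 CPM in either class, Serpinb6a was 8.23-fold higher, and the pump subunits Atp6v1h (1.76-fold) and Atp6v1a (1.67-fold) came next, below the threshold. The other higher genes were under 50 CPM, namely Ctsf at 28.2 against 0.786 CPM and the inhibitor Serpinb1a at 38.9 against 11.6 CPM. Igf2r (4.05-fold), Gnptab, which builds the mannose-6-phosphate tag of lysosomal enzymes (2.84-fold), and Ctsh (2.66-fold) were lower.

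Type 2 dendritic-like cells had more Cst3 and less Ctsb, Ctsd and Ctsl than classical monocyte-like cells. These cells (443 cells with markers such as Cd209a and Mgl2) had 3 of the 7 genes above 5 CPM in either class at least 2-fold lower than classical monocyte-like cells and 0 at least 2-fold higher, against 8.83% and 9.61% of all genes. Ctsl stood at 37.2, 61.7, 80.5, 33.1, 63.8 and 104 CPM in libraries 1 to 6, below every library of the monocyte-like cells, and was 4.28-fold (95% counting interval 3.93 to 4.68) lower. Ctsd was 3.09-fold (95% counting interval 2.87 to 3.34) lower and Ctsb 2.25-fold (95% counting interval 2.16 to 2.34) lower, in 6 of 6 libraries each. Ctsk stayed under 5 CPM in both classes, at 1.33 against 2.77 CPM, levels close to the 1.54 CPM of B-like cells. Ctss (1331 against 1492 CPM) and Ctsz (555 against 482 CPM) differed by less than 2-fold. Cst3 was 1.94-fold (95% counting interval 1.91 to 1.96) higher, in 6 of 6 libraries, and its 2-fold mark was reached in 3 of them.

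Of the listed genes 10 of 78 (12.8%) were higher and 10 lower in type 2 dendritic-like cells, against 9.61% and 8.83% of all genes, and all 7 antigen processing partners were higher. H2-Eb1, H2-Ab1 and H2-Aa led, at 20.4-fold, 17.7-fold and 16.7-fold. Among genes above 50 CPM in either class, Sort1 (7.05-fold), the lysosomal membrane protein Lamp1 (3.46-fold) and Ctsc, which activates granule proteases (3.4-fold), were at the lower end.

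Type 1 dendritic-like cells (100 cells with markers such as Xcr1 and Clec9a) had the highest Cst3 of all classes, at 17186 CPM (95% counting interval 17024 to 17348), with 19599, 14699.7 and 17902 CPM in libraries 1, 3 and 4. A cell of this class held a median of 434 Cst3 UMIs. Among libraries with at least 20 cells of a class, no other class had one above 5093 CPM, the value of fibroblast-like cells in library 5. Migratory dendritic-like cells ranked next in the pooled cells at 6585 CPM, with 4041 CPM in library 3, where alone they reached 20 cells. Fibroblast-like (4637 CPM), nonclassical monocyte-like (4241 CPM) and type 2 dendritic-like cells (3492 CPM) followed, and the last 2 overlapped over the libraries. Ctss was 579 CPM and Ctsl 32.5 CPM in type 1 dendritic-like cells.

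Plasmacytoid dendritic-like cells (492 cells with markers such as Siglech and Ccr9), which make type I interferon, differed from the other dendritic-like classes in Ctsl and Ctsb. Ctsl stood at 963, 881, 1138, 822, 1020.5 and 704 CPM in libraries 1 to 6, while type 2 dendritic-like cells had 33.1 to 104 CPM. Ctsb was also high at 1069, 972, 1052, 969, 1082 and 961 CPM, against 212 to 427 CPM. The ranges of the 2 classes did not overlap for either gene. The share of all genes without overlap between these 2 classes was not computed. Cst3 had the opposite order, with 656 to 970.0 CPM in plasmacytoid and 2748 to 4898 CPM in type 2 dendritic-like cells. Among 492 cells 98.2% (Wilson 95% interval 96.6 to 99%) held a Ctsl UMI, against 41.5% (Wilson 95% interval 37.0 to 46.2%) of type 2 dendritic-like cells, although the latter were deeper (19255 against 11474 UMIs at the median). Thinned to 3000 UMIs per cell, the expected shares were 83.4% and 12.7%. The highest pooled Ctsl of all classes was the 934 CPM of fibroblast-like cells, followed by 881 CPM in Arg1 macrophage-like and 860.0 CPM in plasmacytoid dendritic-like cells. The last 2 overlapped over the libraries. Fibroblast-like cells (66 cells) had 1 library of at least 20 cells, at 775 CPM, within the 716 to 1063 CPM of Arg1 macrophage-like cells.

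The inhibitor and the enzymes were set against each other as the number of Cst3 UMIs per UMI of the 6 cysteine proteases Ctsb, Ctsk, Ctsl, Ctss, Ctsz and Lgmn. This ratio of transcripts was 14.5 in type 1 dendritic-like cells (12.5 to 16.2 over 3 libraries), 1.46 in type 2 dendritic-like cells (1.11 to 2.22) and 1.24 in nonclassical monocyte-like cells. It was 0.581 in classical monocyte-like cells (0.338 to 0.696), 0.472 in Lyve1 macrophage-like cells (0.356 to 0.540) and 0.168 in Arg1 macrophage-like cells (0.145 to 0.236). The libraries of Lyve1 and Arg1 macrophage-like cells did not overlap, and those of Lyve1 macrophage-like and classical monocyte-like cells did. B-like cells (0.250) and plasmacytoid dendritic-like cells (0.269) were also low. The ratio compares transcripts, not secreted or active protein.

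**Figure D3:**
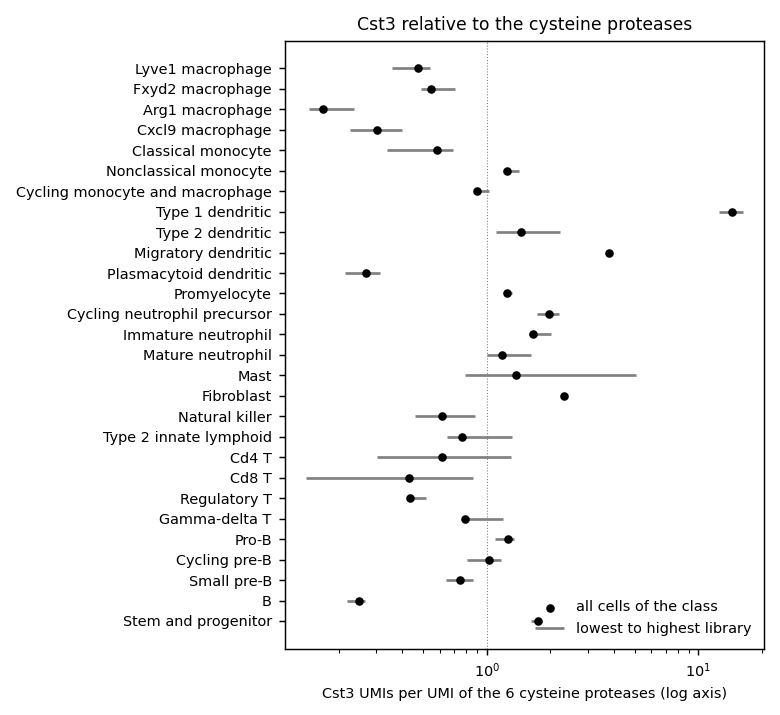
Cst3 UMIs per UMI of the 6 cysteine proteases in each class, on a log axis. Points are all cells of a class, lines span the lowest to the highest library of at least 20 cells, and the dotted line marks equal numbers. Type 1 dendritic-like cells lie at 14.5 and Arg1 macrophage-like cells at 0.168.

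In granulocytic cells the aspartic protease Ctsd had its highest CPM at the mature stage. There its pooled CPM was the highest of the 8 genes, in 3 of 6 libraries above Cst3. In the 3 earlier classes Cst3 lay above it. Ctsd stood at 119.8 CPM in cycling neutrophil precursor-like cells (1066 cells), 221 CPM in immature neutrophil-like cells (3556 cells with markers such as Ltf, Camp and Ngp) and 601 CPM in mature neutrophil-like cells (3508 cells with markers such as Cxcr2, Csf3r and Retnlg). In libraries 1 to 6 it was 166, 195, 159, 187, 225 and 253 CPM in immature and 648, 520.1, 520.1, 589, 564 and 689.6 CPM in mature neutrophil-like cells. Each library was higher in the mature cells, by 2.51 to 3.92-fold, and the pooled difference was 2.72-fold (95% counting interval 2.65 to 2.79). Promyelocyte-like cells, the earlier stage that makes primary granules, had 181 CPM. CPM is a share of the RNA of a class, and the depth of the cells fell along this order. The median was 35751 UMIs in promyelocyte-like, 27247 in cycling precursor-like, 11929.5 in immature and 4872.5 in mature cells. In the same order, the median cell held 6, 3, 2 and 3 Ctsd UMIs. A Ctsd UMI was found in 85.9% of immature and 88.0% of mature cells.

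Ctsl followed the same order from the cycling precursor on. It stood at 30.3 CPM in the precursor, 59.9, 66.7, 75.4, 56.5, 84.1 and 66.7 CPM in immature and 198, 212, 173, 248, 265 and 188 CPM in mature neutrophil-like cells of libraries 1 to 6, with no overlap between the last 2 and a pooled difference of 3.12-fold (95% counting interval 2.99 to 3.27). Ctsz was 2.23-fold (95% counting interval 2.07 to 2.40) higher in mature cells at 71.6 against 32.2 CPM, and was higher still in promyelocyte-like cells (236 CPM). Cst3 (1.74-fold) and Ctsb (1.37-fold) were higher in mature cells in 6 of 6 libraries without reaching 2-fold.

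In all, 5 of the 7 genes above 5 CPM in either class were at least 2-fold higher in mature than in immature neutrophil-like cells and 0 lower, against 16.6% and 16.5% of all genes above 5 CPM. Of these 5, Ctss and Lgmn stood at 39.0 and 7.60 CPM in the mature cells and at 7.34 and 1.15 CPM in the immature cells, far below their levels in macrophage-like cells, and with genes at or under 50 CPM not called 3 genes were called. Ctsk was under 5 CPM in both classes, at 2.16 and 0.697 CPM. Ctss UMIs were in 14.5% (Wilson 95% interval 13.4 to 15.7%) of mature and 6.55% (Wilson 95% interval 5.78 to 7.41%) of immature cells, at median depths of 4872 and 11929.5 UMIs. With depth made equal by thinning to 3000 UMIs the shares were 9.14% and 2.14%, and B-like cells, which have their own Ctss, had 56.8%. The correction for ambient RNA had emptied the Ctss entry of 7.37% of the immature and 2.77% of the mature cells. The invariant chain Cd74, a transcript of antigen-presenting cells, was 6.42-fold higher in mature cells as well, at 93.3 against 14.5 CPM. The 7 Lyve1 macrophage markers, on which the neutrophil gates put a limit in part, summed to 2.86 to 16.3 CPM in mature and 5.00 to 9.17 CPM in immature cells, with 0 of 7 at 0. The 4 erythroid markers summed to 0.815 to 1073 CPM over the libraries of the mature cells, and Hbb-bs led that class. The part of RNA from other cells in these low levels was not tested.

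**Figure D4:**
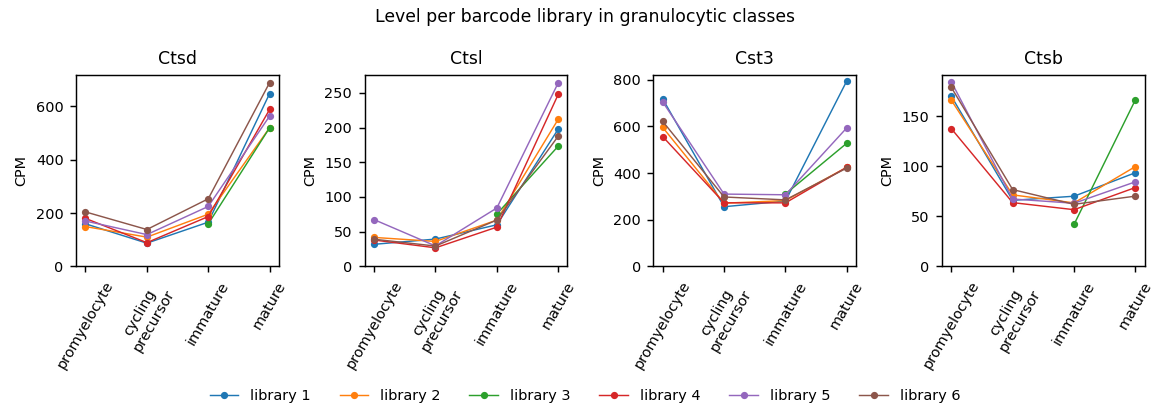
Level (CPM, linear axes) of Ctsd, Ctsl, Cst3 and Ctsb in 4 granulocytic classes, with 1 line per barcode library and no point where a library had fewer than 20 cells. In every library Ctsd is higher in mature (520.1 to 689.6 CPM) than in immature neutrophil-like cells (159 to 253 CPM).

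Of the other listed genes 14 of 65 (21.5%) were at least 2-fold higher in mature than in immature neutrophil-like cells and 6 (9.23%) lower, against 16.6% and 16.5% of all genes. The higher ones included all 4 antigen processing partners above 5 CPM, but 2 of 20 lysosomal hydrolases (10%) and 0 of 14 proton pump subunits. Among genes above 50 CPM in either class, the alpha-galactosidase Gla (6.22-fold) and Gm2a (5.82-fold) had the largest differences after Cd74. The class II genes H2-Eb1, H2-Aa and H2-Ab1, under 50 CPM, stood at 33.1, 36.3 and 33.4 CPM in mature cells. In immature cells they stood at 3.16, 4.20 and 4.12 CPM. Serpinb1a, an inhibitor of neutrophil serine proteases, was 13-fold lower, at 32.9 against 427 CPM, Cd63, which also lies in primary granules, 2.57-fold and Sort1 2.04-fold lower. The serine protease cathepsin G (Ctsg), named a cathepsin without being of the same family, stood at 3038 CPM in promyelocyte-like cells and at 0.328 and 1.19 CPM in immature and mature neutrophil-like cells. Ctsg, which was named after its values were seen, was thus near 0 in the classes where Ctsd was highest.

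Against mature neutrophil-like cells, classical monocyte-like cells had 5 of the 7 genes above 5 CPM in either class at least 2-fold higher and 1 lower. Most genes differed in this pair, with 59.1% higher and 10.5% lower, and the median gene was 1.33 higher on the log2 scale in monocyte-like cells. Ctss differed most, by 38.3-fold (95% counting interval 35.6 to 41.2), and Lgmn came next at 28.9-fold (95% counting interval 24.4 to 34.3). Further genes were Ctsb (7.67-fold), Ctsz (6.73-fold) and Cst3 (3.56-fold). Ctsd was lower in monocyte-like cells in 6 of 6 libraries, by 2.40-fold (95% counting interval 2.34 to 2.47). Ctsl was 254 against 225 CPM. With classes scaled by the median ratio over genes, the median gene differed by 0.21 and the higher share of all called genes moved from 85% to 57.7%. Ctss was then 16.4-fold higher and Ctsd 5.62-fold lower, Cst3 (1.53-fold) was no longer called, and Ctsl was called lower by 2.07-fold. Ctsk, with 2.77 and 2.16 CPM, was not called under either scaling, and its direction was not the same under both.

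Among 79 other listed genes 49 (62.0%) were at least 2-fold higher in classical monocyte-like cells and 4 (5.06%) lower, against 59.1% and 10.5% of all genes, so that the higher share was near that of all genes. The largest differences were in Ifi30 (160.2-fold), the class II loading gene H2-DMa (81.3-fold) and the endocytic receptor Lrp1 (42.6-fold). Cd63 (6.39-fold) and Gla (2.59-fold) were lower, and the pump subunit Atp6v1g1 was 1.81-fold lower, below the threshold.

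Lymphoid and mast-like cells had low levels of most of the 8 genes, with Ctsd as an exception. In natural killer-like cells (254 cells) Ctsd stood at 423, 373, 267, 453, 439 and 422 CPM in libraries 1 to 6, and 92.9% (Wilson 95% interval 89.1 to 95.5%) of the cells held a UMI of it, while Lgmn was at 3.04 CPM and Ctsl at 9.51 CPM. Ctsd was 502 CPM in mast-like cells and 188 CPM in Cd8 T-like cells. B-like cells had 30.8 CPM. Natural killer-like cells lay above B-like cells in each library. B-like cells in turn had Ctss at 350.0, 282, 331, 333, 286 and 338 CPM and Ctsz at 210.2, 206, 189.9, 217, 209 and 183 CPM in libraries 1 to 6. Ctss was lower in the earlier B-lineage classes, at 31.9 to 71.3 CPM in pro-B-like, 28.3 to 97.1 CPM in cycling pre-B-like and 83.6 to 135 CPM in small pre-B-like cells, and in none of these did a library reach the lowest library of B-like cells. The number of Ctss UMIs per Ctsb UMI was 5.92 in B-like cells, against 2.28 in classical monocyte-like and 0.825 in Lyve1 macrophage-like cells.

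Ctsk differed from the other 7 genes in being held by very few cells. Of 32953 cells 1310 (3.98%) had any of its 5350 UMIs, and 113 cells had at least 10. The 7 cells with the most Ctsk, 88 to 305 UMIs each, held 23.3% of all Ctsk UMIs. All 7 had UMIs of Acp5 (tartrate-resistant acid phosphatase, 55 to 527 UMIs), of the osteoclast pump subunit Atp6v0d2 and of the collagenase Mmp9, and 0 of the 7 had a UMI of Lyve1 or Col1a1. Mmp9, also one of the mature neutrophil markers, had 7 to 316 UMIs in them. Ocstamp, Dcstamp, Oscar and Calcr were not in all 7: the cell with 147 Ctsk UMIs had 0 UMIs of each. The cell with 305 Ctsk UMIs had 1 Dcstamp UMI and 0 of Ocstamp, Oscar and Calcr. The 7 cells came from libraries 1, 3, 4 and 5, and 4 of them passed the osteoclast gate, which used Acp5, Ocstamp, Dcstamp, Atp6v0d2, Oscar and Calcr. These 4 osteoclast-like cells had 6034 CPM of Ctsk, but 125 CPM of Ctss and 8.90 CPM of Lgmn. This was below the 1788 and 1079.9 CPM of Lyve1 macrophage-like cells, and with 4 cells it describes these cells alone.

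Lyve1 macrophage-like cells held 34.0% of all Ctsk UMIs, and fibroblast-like cells (66 cells) 4.13%. The 2 classes differed in how the UMIs were spread. In fibroblast-like cells 83.3% (Wilson 95% interval 72.6 to 90.4%) of cells were positive, whereas 13.5% (Wilson 95% interval 11.8 to 15.3%) of Lyve1 macrophage-like cells were, at median depths of 14722 and 13262 UMIs. In B-like cells, which should lack Ctsk, the share was 0.933% (Wilson 95% interval 0.575 to 1.51%) at a median of 5654 UMIs. Thinned to 3000 UMIs, the shares were 41.7%, 7.84% and 0.450%. Among the 1499 Lyve1 macrophage-like cells 1297 had 0 Ctsk UMIs, 82 had 1, 31 had 2 to 4, 21 had 5 to 9, 38 had 10 to 19 and 30 had 20 or more. The 150 cells with the most Ctsk held 97.1% of the Ctsk UMIs of the class. In Arg1 macrophage-like cells 22% of cells were positive at a median of 20646 UMIs, and 1 cell had at least 10 UMIs. Thinned to 3000 UMIs their share was 4.95%, below the 7.84% of Lyve1 macrophage-like cells.

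The 68 Lyve1 macrophage-like cells with at least 10 Ctsk UMIs, a limit chosen after the distribution was seen, made up 4.54% of the class (Wilson 95% interval 3.59 to 5.71%). They were found in all 6 libraries, at 3.57, 2.70, 3.06, 3.80, 6.80 and 5.77% of the class in libraries 1 to 6. Their median depth was 13318 UMIs and that of the 1297 cells without Ctsk 13072 UMIs. The other 7 genes differed by at most 1.20-fold between them, with Ctsb at 2103 and 2150.1 CPM, Ctsd at 739 and 746 CPM and Lgmn at 1053 and 1086 CPM. Few genes of any kind differed here: of 3875 genes above 50 CPM in either set of cells, 1.99% were at least 2-fold apart. Lyve1 itself was 1.45-fold higher in the Ctsk-positive cells, and Fxyd2, a regulator of the sodium pump (2.38-fold), and the water channel Aqp1 (1.87-fold) were higher in 5 of 5 libraries with at least 5 such cells. Of the genes seen in the osteoclast-like cells, Acp5 was 46.1 against 35.8 CPM and higher in 2 of 5 libraries. Atp6v0d2 was 4.26-fold higher, at 17.5 against 4.11 CPM, and higher in 3 of 5 libraries. Mmp9, also a mature neutrophil marker, was 3.17-fold lower, at 30.4 against 96.4 CPM. The fibroblast genes Col1a1, Dcn and Prg4 were below 4 CPM in both. Retnla, a marker of alternative activation (12.2-fold lower), the class II genes H2-Aa (4.51-fold) and H2-Eb1 (3.82-fold) and the neutrophil transcripts S100a8 (6.13-fold) and Retnlg (7.97-fold) were lower in 5 of 5 libraries. These cells were chosen by Ctsk in the same counts, so the values are a description, and the part of neutrophil RNA in them was not tested. Named genes other than the markers and the 8 genes were among the 10 highest or lowest folds and were chosen after their values were seen.

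**Figure D5:**
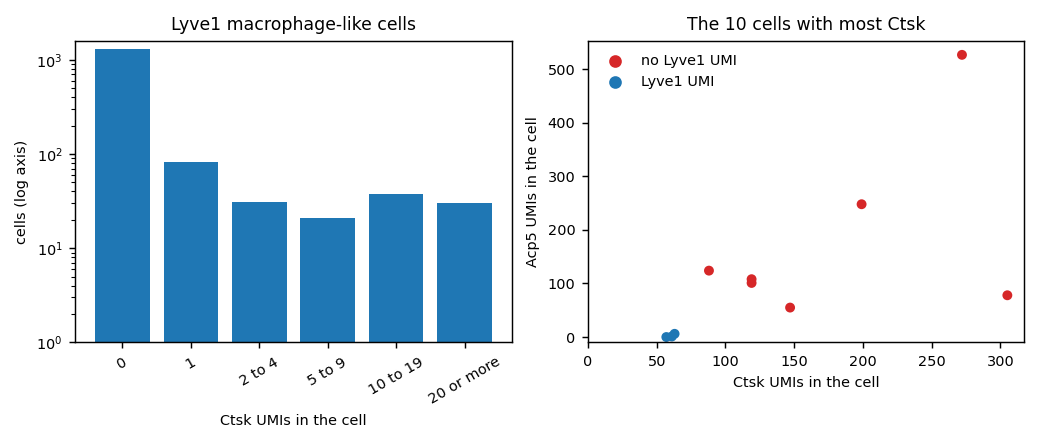
Left, number of Lyve1 macrophage-like cells (log axis) by the Ctsk UMIs in the cell, in bins of unequal width: 1297 cells have 0, 21 have 5 to 9, 38 have 10 to 19 and 30 have 20 or more. Right, Ctsk and Acp5 UMIs (linear axes) of the 10 cells with the most Ctsk, coloured by whether the cell holds a Lyve1 UMI; the 7 cells without one have 55 to 527 Acp5 UMIs.

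Over the 28 classes with at least 50 cells, the patterns of the 8 genes were compared as the Pearson correlation of log2(CPM + 1). The classes share libraries and lineage, so the values describe likeness and carry no test. Among the 8 genes, Ctss and Lgmn were most alike (r = 0.91), followed by Ctss and Ctsz (r = 0.87) and Ctsz and Lgmn (r = 0.86). Ctsd was unlike Ctsz (r = 0.09), Lgmn (r = 0.14), Ctss (r = 0.16) and Cst3 (r = 0.06). The neighbours Ctsk and Ctss, with r = 0.38, were less alike than Ctss and Lgmn on different chromosomes. Among 7866 genes above 50 CPM in at least 1 class, those most like Ctss were Irf5 (r = 0.92), Ctsc (r = 0.91) and Npc2 (r = 0.91), a transcription factor, another cathepsin and a lysosomal cholesterol carrier. Those most like Ctsl were Lamp2 (r = 0.89), Grn (r = 0.89) and Hmox1 (r = 0.86), of which Lamp2 and Grn are lysosomal proteins. For Ctsb they included Pltp (r = 0.93) and AI607873 (r = 0.93), and for Lgmn Plxnb2 (r = 0.91), Ctss (r = 0.91) and Adam17 (r = 0.91). For Ctsd they were Por (r = 0.86), Plod1 (r = 0.83) and Cebpb (r = 0.79), for Ctsk C4b (r = 0.95), Igf1 (r = 0.93) and Colec12 (r = 0.92), for Ctsz Gm6377 (r = 0.91), Ptpro (r = 0.91) and Apba1 (r = 0.90) and for Cst3 Hfe (r = 0.90), Atox1 (r = 0.89) and Nostrin (r = 0.87).

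The 1384 cells left out because they carried both macrophage and neutrophil markers had levels between those of the gated classes, with Ctsb at 1421 CPM, Ctss at 1634 CPM, Lgmn at 736 CPM and Ctsd at 632 CPM.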

How the data were processed

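Single-cell RNA of CD45+ synovial cells was measured with a 3′ droplet kit. The authors aligned reads to mm10 with Cell Ranger 7 (per the labels), corrected for ambient RNA with SoupX, removed doublets with DoubletFinder and filtered cells, and deposited 1 table of UMI counts for all samples together. No doublets were called again here. UMI counts were summed per class and divided by the total of the class (CPM). A marker counted as present above 10% of its 99th percentile over cells, and cells were gated on numbers of present markers. The gates, the 8 genes and the gene lists were chosen with earlier results of these data known. A gene was called at a 2-fold ratio if above 5 CPM in either class, while the recomputed counts of the closing section take all 8 genes with no minimum. No test was run, because library numbers of barcodes are tied to no sample. Intervals were exact Poisson for CPM, Clopper-Pearson for folds and Wilson for shares, and they cover counting error alone. Shares were also computed with cells thinned to 3000 UMIs, leaving out shallower cells. Named genes were the 8 genes, the 3 listed lysosomal genes with the highest and the 3 with the lowest fold among those above 50 CPM, and the 3 genes most like each of the 8. One gene that this rule names is not reported here. Alternatives were Leiden clusters (resolution 1.0, 2000 variable genes, 30 components, 15 neighbours), stricter gates, other totals, equal weight of cells or libraries, single libraries left out, zeros stored by the ambient correction read as 1 UMI and a 50 CPM minimum. The code that makes the calls was checked on simulated counts. Python 3.11.15, numpy 2.4.6, scipy 1.17.1, pandas 2.3.3, scanpy 1.11.5 and leidenalg 0.10.2 were used.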

Additional observations from a re-analysis of the deposited data

How the results depend on the processing

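Over all alternatives 133 recomputed counts of called genes, taken over the 8 genes with no CPM minimum, stayed within 1.5 times the reported count and 14 did not. With Leiden clusters in place of gates, 7 genes rather than 3 were called between Fxyd2 macrophage-like and classical monocyte-like cells and 4 rather than 2 between Cxcl9 macrophage-like and classical monocyte-like cells; there, the cluster named for Fxyd2 was led by Vsig4, Ccl8 and Cbr2, and 1 of 2 clusters named for Cxcl9 by Ccl8 and Arg1. For Cxcl9 macrophage-like cells 1 gene was called without mitochondrial, ribosomal protein and neutrophil marker genes, with equal weight of cells, with the median over libraries and, as an alternative chosen after seeing the data, with no exclusion of cells by neutrophil markers, and leaving out single libraries gave 1 to 2. With a 50 CPM minimum 3 genes rather than 6 were called between mature and immature neutrophil-like cells. Between type 2 dendritic-like and classical monocyte-like cells median-ratio scaling gave 1 gene higher and 3 lower, where the reported total gave 0 and 4. Genes at least 2-fold apart between libraries numbered 0 with Leiden clusters in classical monocyte-like cells, 2 with Leiden clusters and 0 to 1 without single libraries in Lyve1 macrophage-like cells, and 1 to 2 without single libraries in mature neutrophil-like cells. Where no construction shows it, the cause was not tested. Recomputed log2 folds stayed within the counting interval in 470 cases and left it in 426, and no called fold reversed. No paired analysis was possible because no source ties barcode numbers to samples. Few cells in a class and genes near 1 CPM limit the precision.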
